A study of Mus musculus with 6 samples.

Results

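The genes described here were well expressed in control bEND.3 cells, a mouse brain endothelial line, and stood 2- to under 8-fold higher after a GapmeR against the long noncoding RNA Gm39822. Levels are given as CPM, a gene's counts per 1000000 counts of its sample. A gene belonged to the set when it reached 10 CPM in both negative controls and when its mean CPM over the GapmeR samples was at least 2 times and under 8 times the control mean. The rule found 151 genes among 49315 rows of the count table, or 1.79% of the 8436 genes that reached 10 CPM in both controls, called well expressed below. The members were thus chosen by the fold between the groups and the control level, and both are given as a description with no test. GapmeRs are antisense oligonucleotides whose central DNA stretch recruits RNase H, the nuclease that cuts RNA paired to DNA. All samples were bEND.3 cells that had received an oligonucleotide at 100 nM, either the Gm39822 GapmeR (4 samples) or the negative control (2 samples). The line is immortalized and 1 GapmeR sequence was compared with 1 control, so these values speak for bEND.3 cells and these oligonucleotides. Nothing in the labels says whether samples came from separate cultures, and the spread between them may be technical. Sequencing depth was similar across groups, with 33074972, 37117934, 30264086 and 31067184 counts for GapmeR samples 1 to 4 and 29261988 and 34266811 for the 2 controls.

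Gm39822 itself had 2, 1, 4 and 2 counts after the GapmeR and 61 and 56 counts with the control oligonucleotide, so the labels fitted the target in each sample. Of 17 endothelial marker genes, 16 were well expressed and none was at 0. Their summed level lay between 10240 and 11571 CPM in all 6 samples, with Egfl7 the most counted. Without Egfl7 the sums were 8345, 7486, 8388 and 8443 CPM after the GapmeR and 8971 and 8661 CPM in controls. By edgeR 8 of the 17 were called lower, with Emcn and Sox17 the lowest, and 3 higher (Erg, Sox18 and Egfl7), where 33.2% of the well expressed genes were lower and 17.8% higher.

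The amount of an RNA in a cell is set by how fast it is transcribed and spliced and how fast it is degraded. Small nucleolar RNA host genes are noncoding transcripts whose introns carry small nucleolar RNAs, and their spliced remainders are commonly short-lived. Many genes for splicing regulators likewise make transcripts with a retained intron or an early stop codon, which are kept in the nucleus or destroyed by nonsense-mediated decay. NRF2 is the transcription factor that turns on glutathione, peroxide and drug-efflux genes under oxidant stress.

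The members were mostly moderate changes in genes toward the low end of the well expressed range. Their median fold was 2.30, with quartiles of 2.13 and 2.67, while the median over all well expressed genes was 1.04. Of the 151, 95 lay between 2- and 2.5-fold, 30 between 2.5- and 3-fold, 15 between 3- and 4-fold and 11 above 4-fold. No well expressed gene reached 8-fold, so the upper limit of the rule removed none. In the other direction 136 well expressed genes were 2- to under 8-fold lower and 10 were lower still. In all 151 members the lowest GapmeR sample exceeded the higher control, a pattern that 37.8% of the well expressed genes showed. By edgeR's quasi-likelihood test 148 of the members were called higher at an adjusted p under 0.05, against 25.4% of the 18234 genes tested and 17.8% of the well expressed ones. The rule used the same contrast, so nothing is read from these counts. Over all genes tested the same fit called 4625 higher and 3643 lower, and over the well expressed genes 1499 higher and 2800 lower (33.2%). With scaling by library size alone it called 6106 of all genes higher and 2135 lower. TMM scaling lowered every fold by a ratio of 1.11 (0.15 on the log2 scale), to a median of 2.08 for the members and 0.939 for the well expressed genes. Applied to TMM-scaled CPM the rule found 94 genes, 89 of them among the 151, and with DESeq2's size factors 96, so the members nearest to 2-fold depend on the scaling.

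**Figure D1:**
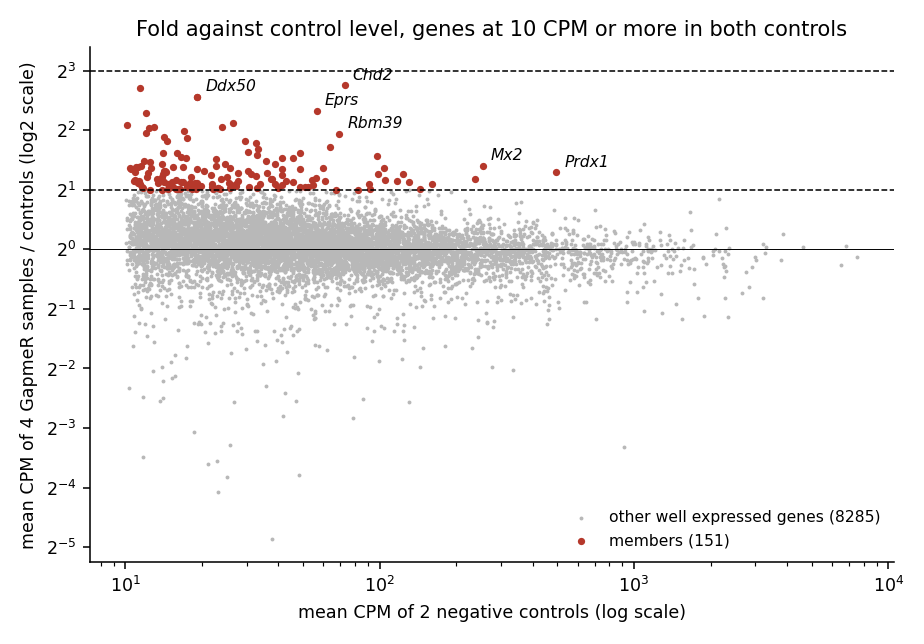
Fold (mean of 4 GapmeR samples over mean of 2 controls, log2 scale) against mean control CPM (log scale) for the 8436 well expressed genes, with the 151 members in red and dashed lines at 2- and 8-fold. Members lie mostly at the low end of the control range, and the highest in the controls was Prdx1 at 495 CPM.

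In the controls the members had a median of 21.9 CPM and a range of 10.2 to 495 CPM, whereas the median well expressed gene had 48.4 CPM. Members were 4.70% of the well expressed genes with a control mean of 10 to 20 CPM (73 of 1554). They were 1.85% of those at 20 to 50 CPM, 0.889% at 50 to 100 CPM and 0.453% at 100 CPM or more. Together they took 1.44, 1.47, 1.44 and 1.51% of all reads after the GapmeR (samples 1 to 4 in order) and 0.578 and 0.570% of control reads. Just inside the lower edge of the rule were Dhx15 (2.00-fold), Ctss (2.01-fold) and 2410006H16Rik (2.01-fold), and just outside it were Srrt, Tpcn2 and C2cd3 (all 1.99-fold). At the edge of 10 CPM, Zcchc7, Tctn1 and Timmdc1 were just inside, and Kdm5d, Wrap53 and Prdm15 just outside with a lowest control of 9.89, 9.78 and 9.72 CPM.

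The member with the largest fold was Chd2, which encodes a chromatin-remodelling helicase and lies on chromosome 7 of mm10 from 73426652 to 73541746. Chd2 had 473, 523, 467 and 505 CPM in the treated samples (1 to 4 in order) and 67.0 and 78.9 CPM in controls. All GapmeR samples were thus close together and far above both controls, with means of 492 ± 26.6 (SD, n = 4) and 72.9 ± 8.41 CPM (SD, n = 2) and a fold of 6.75. Its neighbour 1810026B05Rik was also a member. GENCODE names this long noncoding RNA gene Chaserr, and it is known to hold down Chd2 expression from the same chromosome. It lies on the same strand of chromosome 7 from 73539798 to 73558395, so that the RefSeq spans of the 2 genes overlap and reads in the overlap may have been given to either. It had 49.6, 57.1, 44.3 and 44.8 CPM after the GapmeR and 16.95 and 14.9 CPM in controls, a fold of 3.07. Both genes of the pair therefore stood higher in every GapmeR sample, Chd2 by the larger ratio.

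The next largest folds belonged to a noncoding host gene and an RNA helicase. 1810032O08Rik, named Snhg16 by GENCODE, had 69.3, 80.8, 72.0 and 76.0 CPM after the GapmeR and 10.9 and 11.9 CPM in controls (6.54-fold). Ddx50, a nucleolar DEAD-box helicase gene, had 111, 124, 103 and 117 CPM against 19.0 and 19.4 CPM (5.92-fold). Its paralogue Ddx21 is not a member, at 367 ± 8.39 CPM against 333 ± 14.2 CPM. Eprs, the gene for the glutamyl-prolyl transfer RNA synthetase, had 315, 254, 305 and 260 CPM against 61.2 and 51.9 CPM (5.02-fold), and here GapmeR samples 1 and 3 were the higher pair. Grb10, an imprinted gene for an adaptor that dampens insulin and growth factor receptor signalling, had 104, 133, 100.0 and 121 CPM against 27.7 and 25.1 CPM (4.34-fold). For each of these the groups stood well apart. Tctn1, a ciliary transition zone gene, the mitochondrial glutamate carrier gene Slc25a22 and the GTPase regulator gene Sgsm2 had folds of 4.25, 4.18 and 3.96.

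**Figure D2:**
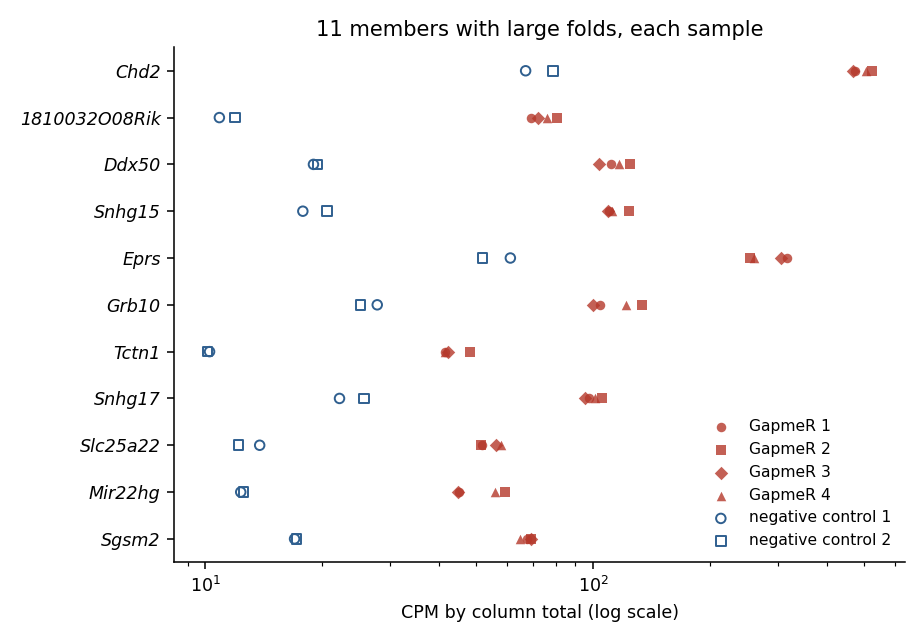
CPM by column total (log scale) of 11 members with large folds, with a filled red symbol for each of 4 GapmeR samples and an open blue symbol for each of 2 controls. The groups do not overlap in any of these genes, from Chd2 at 6.75-fold to Sgsm2 at 3.96-fold.

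Long noncoding RNA genes were 8 of the members with an annotation, out of 51 well expressed ones. They made up 5.37% of the members (8 of 149 in GENCODE) and 0.520% of the other well expressed genes (43 of 8265), a difference that was not tested. Among the genes 2- to under 8-fold lower the share was 2.21% (3 of 136), so it was above that of the other well expressed genes in both directions. The 8 had a median fold of 3.92, above that of any other class of members. Besides the Snhg16 and Chaserr genes they included the small nucleolar RNA hosts Snhg15, Snhg17 and Snhg1, the miR-22 host Mir22hg, and 5430416N02Rik and 2410006H16Rik. Snhg15 had 110.1, 123, 109 and 112 CPM after the GapmeR and 17.8 and 20.6 CPM in controls (5.92-fold). Snhg17 had 97.7, 106, 95.6 and 101 CPM against 22.2 and 25.7 CPM (4.18-fold). Snhg1 had 104, 130.0, 97.4 and 117 CPM against 31.8 and 33.4 CPM (3.44-fold). In all 3 hosts GapmeR sample 2 was the highest of the treated samples and sample 3 the lowest. Mir22hg was at 51.3 ± 7.35 CPM (SD, n = 4) against 12.4 ± 0.15 CPM (SD, n = 2), or 4.12-fold. Other well expressed noncoding RNA genes fell short of the rule: Neat1, the scaffold of paraspeckles, stood at 1.96-fold, Gas5 at 1.94-fold and Snhg6 at 1.78-fold, while Malat1, a nuclear speckle RNA, stood at 0.973-fold. The well expressed host genes Zfas1 and Snhg8 stood at only 1.36- and 1.16-fold, so hosts did not all rise alike. Of 30 tested rows on a list of nuclear and host noncoding RNAs, 17 were called higher and 1 lower by edgeR, and their median log2 fold change was 0.75, beside 25.4% higher, 3643 of 18234 lower and a median of 0.03 over all genes tested.

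The promoters of the members with the largest folds are shown because these genes head the set by the fold that chose it; Chd2 is named only. Sequences come from RefSeq on GRCm38.p6, cover 250 bases before to 50 bases after the start, and read 5′ to 3′ on the gene's strand. They are chr11:116671410-116671709 (+) for Snhg16, chr10:62651169-62651468 (-) for Ddx50 and chr11:6528711-6529010 (-) for Snhg15. Capitals mark matches, on either strand, to CGCGAGA (part of the ZBTB33 element), ACTTCCGG (an ETS motif), TGACGTCA (the cyclic AMP response element) or CACGTG (an E-box).
1810032O08Rik (RefSeq Snhg16): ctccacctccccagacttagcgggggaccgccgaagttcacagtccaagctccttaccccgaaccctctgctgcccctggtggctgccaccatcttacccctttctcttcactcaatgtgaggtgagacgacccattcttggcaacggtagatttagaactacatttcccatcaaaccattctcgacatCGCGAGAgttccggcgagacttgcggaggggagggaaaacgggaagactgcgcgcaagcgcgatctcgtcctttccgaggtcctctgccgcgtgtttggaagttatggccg
Ddx50: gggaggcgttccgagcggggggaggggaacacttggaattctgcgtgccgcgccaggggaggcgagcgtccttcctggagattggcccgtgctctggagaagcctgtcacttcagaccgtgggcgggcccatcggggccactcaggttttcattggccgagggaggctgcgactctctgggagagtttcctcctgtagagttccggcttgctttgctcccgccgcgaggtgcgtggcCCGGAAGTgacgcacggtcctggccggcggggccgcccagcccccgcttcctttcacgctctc
Snhg15: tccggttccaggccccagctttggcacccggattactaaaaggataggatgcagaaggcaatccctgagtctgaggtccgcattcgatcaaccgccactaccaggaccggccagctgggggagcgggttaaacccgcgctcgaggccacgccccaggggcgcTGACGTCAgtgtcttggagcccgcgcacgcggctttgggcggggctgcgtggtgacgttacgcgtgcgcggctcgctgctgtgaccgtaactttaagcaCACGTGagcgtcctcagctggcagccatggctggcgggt
Each promoter shown held a different motif or motifs among these 4, which were selected from a longer list of searched motifs. GGGCGG, also searched but not marked, was in both the Ddx50 and the Snhg15 window. The difference between the promoters therefore depends on which motifs were marked. Ddx50 has another promoter entry, chr10:62649704-62650003 (-), which is not shown and held none of the 4 marked motifs. Across all members 120 genes had 158 promoter entries, and the same letters were counted in 8575 promoters of the other well expressed genes. TGACGTCA was in 3.16% of the members' promoters and 3.11% of the others, ACTTCCGG in 10.1 and 9.21%, and CGCGAGA in 5.70 and 6.02%. CACGTG was in 5.06% of the members' promoters (8 of 158) and 10.6% of the others, and in 7.15% of all 32851 promoters. In well expressed genes that were 2- to under 8-fold lower it was in 5.17% (6 of 116), so the low share was not particular to members. Median GC content of the window was 60.7% in members and 61.7% in the others. A match is a description of letters and not a binding site, and none of these shares was tested.

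Genes of the NRF2 list gave 5 members, all in glutathione supply, peroxide removal or drug efflux. Prdx1, which encodes the peroxide-reducing enzyme peroxiredoxin 1, had the most reads of all members, with 1268, 1229, 1192 and 1166 CPM after the GapmeR and 508 and 482 CPM in controls (2.45-fold). Per kilobase of exon its level was also the highest of the annotated members, 292 CPM per kb after the GapmeR and 119 CPM per kb in the controls. Slc7a11, the cystine importer gene, had 248, 229, 237 and 236 CPM against 99.8 and 98.1 CPM (2.40-fold). Gclm, the regulatory subunit of glutamate-cysteine ligase, had 198, 183, 196 and 203 CPM against 91.3 and 90.2 CPM (2.15-fold). The spread among GapmeR samples was small in these genes, and the median coefficient of variation of the 5 was 4.36%. The efflux transporter genes Abcc4 and Abcc1 stood at 3.06- and 2.15-fold, with means of 148 ± 6.48 and 345 ± 24.5 CPM after the GapmeR. Of the 24 NRF2 list genes tested, 15 were called higher and 2 lower by edgeR, and their median log2 fold change was 0.39. Of these genes 22 were well expressed, and among all well expressed genes 17.8% were called higher and 33.2% lower. Hmox1, the heme oxygenase gene, stood just under the rule at 1.89-fold and Txnrd1, the thioredoxin reductase gene, at 1.44-fold. Nqo1, a quinone reductase gene often used as a marker of NRF2 activity, and G6pdx were the 2 lower ones, at 0.896- and 0.871-fold.

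Of these 5 members, 4 had a promoter entry and 3 of them held the antioxidant response element core TGACNNNGC, the letters that NRF2 is known to bind, searched on both strands. Their windows are chr14:118706170-118706469 (-) for Abcc4, chr4:116685349-116685648 (+) for Prdx1 and chr3:122245307-122245606 (+) for Gclm, with the match in capitals.
Abcc4: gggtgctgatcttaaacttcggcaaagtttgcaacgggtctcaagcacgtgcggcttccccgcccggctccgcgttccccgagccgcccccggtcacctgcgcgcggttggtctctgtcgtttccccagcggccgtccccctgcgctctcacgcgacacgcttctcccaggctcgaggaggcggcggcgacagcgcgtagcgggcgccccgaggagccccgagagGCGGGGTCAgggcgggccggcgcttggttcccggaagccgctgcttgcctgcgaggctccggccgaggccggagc
Prdx1: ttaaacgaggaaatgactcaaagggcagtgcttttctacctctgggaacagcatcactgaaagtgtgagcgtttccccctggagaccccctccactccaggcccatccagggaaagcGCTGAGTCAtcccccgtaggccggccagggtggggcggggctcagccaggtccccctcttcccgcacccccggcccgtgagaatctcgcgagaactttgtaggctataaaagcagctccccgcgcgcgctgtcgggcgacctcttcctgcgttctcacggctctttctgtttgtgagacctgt
Gclm: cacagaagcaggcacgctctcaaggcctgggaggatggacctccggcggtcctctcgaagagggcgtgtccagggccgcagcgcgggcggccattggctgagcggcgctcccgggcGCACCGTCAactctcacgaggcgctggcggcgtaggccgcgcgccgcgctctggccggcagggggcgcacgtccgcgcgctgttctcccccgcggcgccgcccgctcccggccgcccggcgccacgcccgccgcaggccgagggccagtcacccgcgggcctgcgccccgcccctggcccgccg
The same letters were in 13.9% of all members' promoters, 14.5% of those of the other well expressed genes and 12.4% of all promoters. Slc7a11 had none in this window.

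Splicing factors and the kinases that act on them formed another group of 12 members, with a median fold of 2.36. Rbm39, a splicing factor gene, had 255, 285, 253 and 274 CPM after the GapmeR and 68.6 and 70.3 CPM in controls (3.84-fold). Clk1 and Clk4, which encode kinases of SR proteins, stood at 2.46- and 2.15-fold from controls of 14.4 and 14.7 CPM. Hnrnpa2b1, an hnRNP gene, had 503, 628, 502 and 505 CPM against 229 and 245 CPM (2.26-fold). GapmeR sample 2 stood apart from the other treated samples in this gene. Hnrnph1 had 240.5, 300.4, 226 and 270 CPM against 113 and 121 CPM (2.21-fold), and Hnrnph3 and Rbmx were members at 2.26- and 2.58-fold. The export factor gene Thoc6, the cyclin gene Ccnl1 and the RNA helicase gene Dhx15 completed the range, at 3.55-, 2.71- and 2.00-fold. Of 44 rows of the SR and hnRNP list tested (43 symbols, 1 of them on 2 rows), 22 were called higher and 4 lower, and their median log2 fold change was 0.28, beside 17.8% higher and 33.2% lower over the well expressed genes, to which 41 of the 44 belonged. The 4 lower ones were Hnrnpu, Ddx17, Cirbp and Hnrnpa1, and Hnrnpa1 was the lowest at 0.686-fold. Genes of this family have processed copies elsewhere in the genome, and reads may have been shared with them.

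Other RNA-handling genes among the members were the mitochondrial RNA helicase gene Supv3l1, the microRNA processing factor gene Dgcr8, the RNase P and MRP subunit gene Pop1 and the nuclear surveillance gene Zcchc7. Their folds were 2.32, 2.41, 2.10 and 2.54. Translation and transfer RNA genes gave 11 members with a median fold of 2.16, Eprs far above the rest. Eif3h, a subunit gene of initiation factor 3, had 282, 264, 296 and 323 CPM against 164 and 124 CPM (2.03-fold), and the SD between its 2 controls was 28.4 CPM. Nemf, a ribosome quality control gene, stood at 2.57-fold, the ribosome assembly gene Mdn1 at 2.22-fold and the mitochondrial threonyl transfer RNA synthetase gene Tars2 at 2.08-fold.

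Chromatin, replication and mitosis genes were members in small numbers. Erg, an ETS transcription factor that maintains endothelial identity, had 291, 318, 299 and 290 CPM after the GapmeR and 123 and 125 CPM in controls (2.42-fold). Its relative Fli1 was called lower by edgeR, at 84.3 ± 3.57 CPM against 145 ± 3.33 CPM, so 2 closely related endothelial factors stood on opposite sides. Of the list of 40 mitosis and replication genes, 34 were called higher and none lower by edgeR, and their median log2 fold change was 0.51. Of the 40 genes 37 were well expressed, a level at which 17.8% of genes were called higher and 33.2% lower. Only Cdc6, Ccnb2 and Pole of them passed 2-fold, at 2.32-, 2.08- and 2.01-fold. Cdc6, which loads the replicative helicase onto origins, had 25.9, 30.6, 25.5 and 30.8 CPM against 12.4 and 11.99 CPM. Most of the other genes of the list lay between 1 and 2 and outside the set. Mcm10, also a replication gene, and the nucleotide excision repair genes Ercc5 and Ercc2 were members at 2.32-, 2.45- and 2.19-fold.

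**Figure D3:**
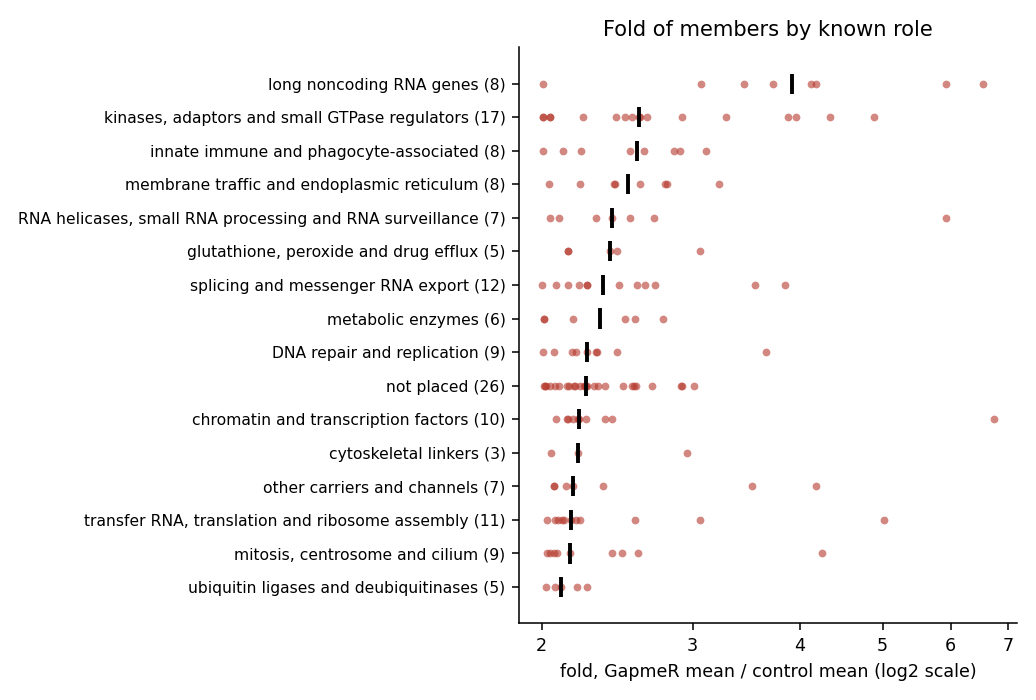
Fold (log2 scale) of the members in 15 classes of known role and of 26 not placed, with 1 point per gene, a black bar at the median and the number of members in brackets. The 8 long noncoding RNA genes have the highest median (3.92), and the classes were drawn up by hand after the members were known.

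Kinases, adaptors and regulators of small GTPases were the largest class placed by hand, with 17 members and a median fold of 2.60. Map4k2 (3.88-fold) and the motor adaptor gene Mapk8ip3 (3.28-fold) belong to it. Mapk8ip3 had 202, 206, 204 and 226 CPM against 63.6 and 63.8 CPM, with the controls almost equal. Large cytoskeletal linker genes were members too, with Dst at 2.95-fold (287 ± 13.7 against 97.3 ± 5.05 CPM) and Utrn at 2.20-fold (288 ± 10.2 against 131 ± 5.89 CPM). The solute carrier genes Slc16a11, Slc25a37 and Slc2a9 stood at 3.52-, 2.18- and 2.07-fold.

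Of 46 interferon-stimulated genes tested, 37 were called lower and 1 higher, where 33.2% of the well expressed genes were lower and 17.8% higher and 45 of the 46 were well expressed. The 1 higher gene was the member Mx2, an interferon-induced GTPase gene. Mx2 had 697, 685, 665 and 644 CPM against 238 and 273 CPM (2.63-fold), the second highest level among the members both in CPM and per kilobase. Oas1b, a member outside the list, had 118, 107, 118 and 119 CPM against 55.0 and 54.1 CPM (2.12-fold). Its close copy Oas1a and the family member Oas2 stood at 0.773- and 1.02-fold, and reads could be split between the Oas1 copies.

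The GapmeR samples differed most from each other in 3 members. Gpnmb, a glycoprotein gene of lysosome-rich cells, had 65.1, 64.3, 179 and 184 CPM after the GapmeR (samples 1 to 4 in order) and 48.4 and 48.8 CPM in controls. Lyz2, the lysozyme gene of myeloid cells, had 81.1, 77.1, 172 and 214 CPM against 64.4 and 57.8 CPM. Ctss, the cathepsin S gene, had 16.6, 18.2, 37.8 and 39.4 CPM against 14.05 and 13.9 CPM. In each, samples 3 and 4 were far above samples 1 and 2, which stood closer to the controls. From samples 1 and 2 alone the folds were 1.33, 1.29 and 1.25, under the rule, and from samples 3 and 4 alone 3.74, 3.15 and 2.76. These were also the 3 members that edgeR did not call higher. Lyz2 and Ctss are themselves on the macrophage marker list. The list's 17 rows (16 symbols, Itgam on 2 rows) summed to 262, 249, 433 and 471 CPM in treated samples 1 to 4 and to 188 and 183 CPM in controls. Cd68, the list's most counted gene at the control level, was flat across the treated samples, at 126, 118, 128 and 121 CPM against 81.6 and 83.3 CPM. Without Cd68, Lyz2 and Ctss the other 14 rows summed to 38.2, 35.1, 95.1 and 96.7 CPM against 28.4 and 27.5 CPM, so the higher values of samples 3 and 4 were also seen in rows outside the set. Of these 14, 10 were above both controls in all GapmeR samples, where 45.3% of the tested genes under 10 CPM were, and Cd14 stood at 0.798-fold. The 10 include an Itgam row with no control counts that was not tested, so the comparison with tested genes is not exact. By edgeR 3 of the 16 tested rows of the whole list were called higher (25.4% over all genes) and none lower, and no row was at 0 in every sample. The receptor gene Csf1r, for example, had 9.55, 7.76, 23.2 and 26.8 CPM against 6.87 and 6.36 CPM. Fibroblast markers summed to 25.2, 24.4, 103 and 30.9 CPM after the GapmeR and 15.8 and 16.7 CPM in controls, so sample 3 stood apart there. Smooth muscle and pericyte markers summed to 15.1, 15.1, 26.2 and 20.8 CPM against 5.54 and 5.02 CPM, with 3 of 9 tested called higher, near the 25.4% over all genes. Neuron and glia markers summed to 40.9, 43.9, 63.7 and 38.3 CPM against 72.0 and 71.4 CPM, with 8 of 12 called lower, where 3643 of all 18234 genes tested were. The part of these marker genes in the members' values was not tested, and in bulk RNA more cells of a type and more RNA per cell cannot be told apart. Without samples 3 and 4 the rule found 141 genes, 133 of them among the 151, with a median fold of 2.29 over the original members.

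**Figure D4:**
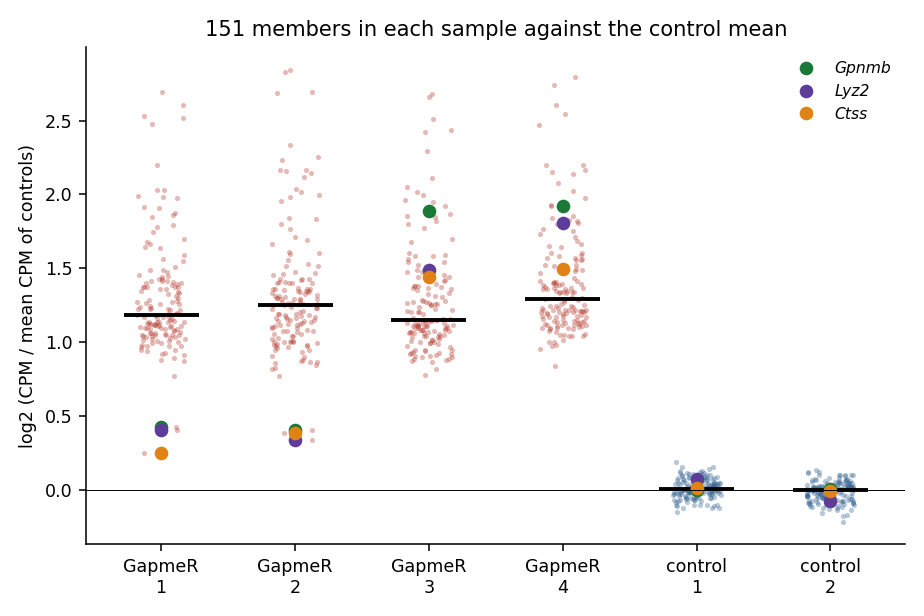
Log2 ratio of CPM to the control mean for the 151 members in each of 4 GapmeR samples (red) and 2 controls (blue), with a black bar at the median and 3 members in other colours. Gpnmb, Lyz2 and Ctss lie near the controls in GapmeR samples 1 and 2 and near or above the median in samples 3 and 4.

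The other members varied less between samples. The median coefficient of variation over the 4 GapmeR samples was 7.53% in the members and 6.49% in all well expressed genes, and 5 members exceeded 20%: the 3 above, Clec2d (24.4%) and the imprinted gene Mest (20.5%). Mest had 91.3, 125, 82.0 and 122 CPM against 44.3 and 38.0 CPM, with samples 2 and 4 the higher pair. The median ratio to the control mean was 2.27, 2.39, 2.22 and 2.45 in GapmeR samples 1 to 4. Sample 4 was the highest treated sample for 71 members and sample 3 the lowest for 63. In 88 members every GapmeR sample was at least 2 times the higher control.

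The members' genes were built of more exons than other well expressed genes. From the GENCODE annotation of GRCm39, which held 149 members and 8265 of the others, the median canonical transcript had 14 exons in members, 9 in the others and 7 in the genes that were 2- to under 8-fold lower. Members were 1.05, 0.847, 2.22 and 3.04% of the well expressed genes with 1 to 5, 6 to 9, 10 to 15 and 16 or more exons, 4 bins of similar size. The median canonical transcript was 4174 bases long in members, 3521 in the others and 3374 in the lower genes, and the median gene span was 35346, 25894 and 20569 bases. GC content differed little, at 49.6, 50.4 and 48.0%. A transcript annotated with a retained intron existed for 77.2% of members, 63.5% of the others and 47.8% of the lower genes. Since genes with more annotated transcripts more often have such an entry, the shares were also taken at 10 or more transcripts, where they were 84.7% of 118 members and 72.7% of 6289 others. Transcripts annotated for nonsense-mediated decay were about as common in members (78.5%) as in the others (79.8%), and existed for 57.4% of the lower genes. The lower genes had a median of 7.5 annotated transcripts, against 20 in members and 18 in the others, and were not split by transcript number. Genes are not replicates and no difference between these sets was tested. The sets were not matched for control level, which was lower in members (median 21.9 CPM, against 48.4 CPM over all well expressed genes). The retained-intron shares were not split by exon number. The retained-intron and neighbour measures were chosen after the members' names were seen.

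Few members were close neighbours. After Chd2 and Chaserr the nearest pairs were Dglucy and Ccdc88c, 14.5 kb apart on chromosome 12, Abca4 and Gclm, 65.4 kb apart on chromosome 3, and Clasrp and Apoe, 91.6 kb apart on chromosome 7. These distances were not taken from the RefSeq spans on mm10, in which Dglucy ends at 100872610 and Ccdc88c starts at 100911519, a wider gap. Members made up 3.31% of the well expressed genes on chromosome 16 and 3.32% on chromosome 3, and 0.353% on chromosome 13 (1 of 283).

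Genes lying just downstream of members on the same strand included many that were nearly silent in the controls. Within 10 kb, 47 genes that were not members and had enough counts lay downstream on the same strand, and 26 of them (55.3%) were called higher by edgeR, with a median log2 fold change of 0.86. Upstream on the same strand it was 15 of 49 (30.6%), with a median of 0.03. For the other well expressed genes the same shares were 42.9% downstream and 25.4% upstream. The downstream calls came mostly from genes under 10 CPM in controls, of which 21 of 29 were higher (72.4%). At that level the upstream share was closer, at 9 of 15 on the same strand (60.0%), and downstream on the opposite strand it was 9 of 16 (56.3%). Genes with almost no control counts could pass the filter of 5 counts in 2 or more samples only through the GapmeR samples. Such genes could hardly be called lower, so all shares of low genes given here are partly set by the filter. Hkdc1, a hexokinase family gene about 5 kb downstream of Supv3l1, had 163, 191, 156 and 209 counts after the GapmeR and 4 and 9 in the controls. Myo1g, a myosin gene of blood cells about 3 kb downstream of Snhg15, had 353, 391, 371 and 417 counts against 40 and 22. Scx, a tendon transcription factor gene downstream of Mroh1, had 204, 230, 183 and 197 counts against 12 and 7. The muscle creatine kinase gene Ckm, downstream of Ercc2, had 19, 17, 24 and 17 counts and none in either control. Each of these was low in both controls and had counts in every GapmeR sample, but all were named after their values were seen. Ckm passed the count filter only through the GapmeR samples. These genes are examples only. The high share among low downstream genes was not particular to members. Downstream of the other well expressed genes on the same strand, 886 of 1322 low genes (67.0%) were called higher, against 332 of 861 (38.6%) upstream. The difference between members and others was not tested. The strand setting of the counting is not given in the sources used here, and overlapping genes may share reads.

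**Figure D5:**
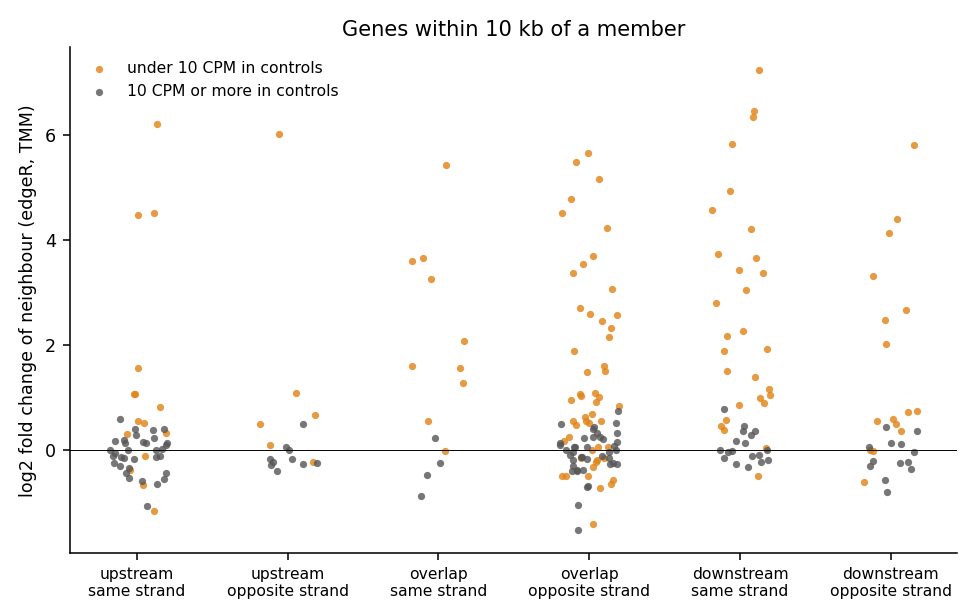
Log2 fold change by edgeR of genes within 10 kb of a member, other than members, by position and strand relative to the member; orange points had under 10 CPM in controls and grey points 10 CPM or more. Orange points downstream on the same strand reach the highest values, and 72.4% of them were called higher. The highest include genes such as Ckm, with 0 counts in both controls, which passed the count filter only through the GapmeR samples. Their folds are therefore not exact, and the share is partly set by the filter.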

How the data were processed

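The data are RNA-seq of bEND.3 cells, 4 Gm39822 GapmeR and 2 negative control samples, grouped by their labels. The authors removed ribosomal RNA before paired-end sequencing, mapped the trimmed reads on mm10 with STAR and deposited whole-number counts per Ensembl gene, not normalized. The submitters' processing notes list STAR 2.5.2b, Subread 1.5.2 and Trimmomatic 0.36. The strand setting is not given in the sources used here. Beside the 6 columns analysed, 1 column of per-sample counts, headed like the negative controls, matched no sample of those labelled and stayed unused, so every fold rests on 2 controls. The stated design has 4 samples in each group, and the other controls were not analysed here.

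CPM was computed from column totals, and values are means ± SD. Genes reaching 5 counts in 2 or more samples were tested with edgeR 4.0.16 (TMM, quasi-likelihood, Benjamini-Hochberg) in R 4.3.3, a fit checked on simulated data. In the simulation only a small part of the genes changed, all of them well counted. The check therefore cannot speak for scaling when many genes change, or for changes in genes with few counts. DESeq2 1.42.0 and limma 3.58.1 were alternatives. An exact permutation test of 4 against 2 samples has 15 splits and a smallest p of 0.0667, so none was used. Gene models came from GENCODE (GRCm39), joined by Ensembl identifier for 149 of 151 members. Positions on mm10 and promoters came from RefSeq, joined by symbol.

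The members, the gene lists and the rule for named genes were chosen with earlier results of these data known. Named genes were the 12 members with the largest fold, the 12 with the most control counts, up to 4 from each list, those at the edges of the rule, the 3 most variable, close neighbours and families. Other members named as examples of a class of role were chosen after their values were seen, as were neighbouring genes. Values of 2 members are not reported here. Of 47 gene lists, 15 held a member, and 28 members were on a list. The lists not described in the report are lysosome (2 members, 5 of 35 genes higher and 25 lower), integrated stress response (2 members, 10 of 38 higher and 7 lower), beside 17.8% higher and 33.2% lower over the well expressed genes and 25.4% higher over all genes tested, and others with 1 or no member.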

Additional observations from a re-analysis of the deposited data

Results flagged for a closer look

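In the group of 4 GapmeR samples, 1 sample stood apart from the other treated samples by Dixon's 95% criterion in 3 of the 51 named members, where chance gives about 1 in 20, or 2.55. It was sample 2 in each. Tctn1 had 48.01 CPM in sample 2 and 41.5 to 42.2 CPM in the others. Hnrnpa2b1 had 628.3 CPM there and 502 to 505 CPM in the others. The noncoding RNA gene 2410006H16Rik had 153.5 CPM there and 127 to 130.1 CPM in the others. In all 3 genes the other treated samples also exceeded both controls. Over all 151 members 10 (6.62%) met the criterion in some sample.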

How the results depend on the processing

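The size of the set follows the scaling. TMM-scaled CPM left 94 genes (89 of the 151) with a median fold of the original members of 2.08, and DESeq2's size factors left 96 (91 of the 151) with a median of 2.09. A floor of 5 CPM gave 239 genes and one of 20 CPM gave 77. Asking every GapmeR sample to be at least 2 times the higher control kept 88, and the fold from the edgeR fit kept 90. Leaving out 1 sample at a time gave 133 to 171 genes and a median fold of 2.27 to 2.35. The count of genes called lower fell from 3643 to 2135 with library size only, and ranged from 1930 to 3949 with 1 sample left out, the lowest without either control (2262 without control 1 and 1930 without control 2, where the lone control is assumed to vary like the GapmeR samples, so these counts say nothing of stability); the count called higher ranged from 3302 to 4800. With a replicate block on the 4 same-numbered samples the set had 94 genes and a median fold of 2.09, and 4517 genes were called higher and 3295 lower. Deviations from the group means of same-numbered samples correlated at -0.0419 and 0.10, so these samples share only a number. Only Gpnmb and Lyz2 gained a call under the block, at log2 fold changes of 0.28 and 0.24, which rest on samples 1 and 2. Samples 3 and 4 were left out together as an alternative chosen after seeing the data.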
